A study of Mus musculus with 6 samples.

Results

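On mouse chromosomes 12 and 17, 2092 regions carried a peak of histone H3 lysine 4 trimethylation (H3K4me3) in both the wild-type and the mutant striatal cells held in vehicle, 949 on chromosome 12 and 1143 on chromosome 17. They were 2092 of 26915 such regions on the 19 autosomes, and of 61171 merged regions in the whole series. The members were found by merging overlapping peaks of the 6 peak lists and keeping regions of these chromosomes that overlapped a peak of each vehicle list. The chromosomes were chosen with the change between the vehicle lists already known, so that change is a description here, and no test was made of it.

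The mark was mapped by H3K4me3 ChIP-Seq in STHdh cells, which are conditionally immortalized progenitor lines from mouse striatum with a C57BL/6 strain label. Q7SST came from the wild-type line and Q111SST from the line with homozygous knock-in of an expanded huntingtin gene. Both were held for 24 hours in serum-free medium with DMSO vehicle, and cyproheptadine, loxapine, DKI (diacylglycerol kinase inhibitor II) and meclizine were each given to the mutant line at 10 uM in the same medium for 24 hours. Each condition had 1 list, and the wild-type and mutant genotypes were each 1 cell line, so genotype and line cannot be told apart. All 6 lists thus share the serum-free medium, and the 4 compound lists share the mutant line.

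H3K4me3 is deposited by SET1 and MLL methyltransferase complexes and marks the nucleosomes around active or poised promoters, above all those rich in CpG. Weaker peaks are also found away from annotated starts, where they can mark enhancers or unannotated promoters. Chromosome 17 of the mouse carries the major histocompatibility complex, called H2, and chromosome 12 carries genes as varied as the hypoxia factor Hif1a and the imprinted Dlk1-Dio3 domain.

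Each peak has a whole-number score, given by the authors, whose scale is not stated. A region's strength in a list was the percentile of its strongest peak's score among all peaks of that list, from 0 for the weakest to 100 for the strongest. A change is the percentile in Q111SST minus that in Q7SST, in percentile points. Because a percentile is a rank within a list, a lower value says that a region stood lower among the peaks of its own list and not that it carried less of the mark.

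The lists held 30758 to 45564 peaks. Chromosome 12 held 3.75% of the peaks of Q7SST, 3.34% in Q111SST, and 3.17% to 3.46% in the compound lists. Chromosome 17 held 4.10% in Q7SST, 3.79% in Q111SST, and 3.65% to 3.85% in the compound lists. Depth is unknown, since no read totals were used here. Of 8 neural progenitor genes, 7 had a peak at a start in Q7SST, 6 in Q111SST, and 4 to 6 in the compound lists. Sox2, a progenitor factor, had none in Q7SST, whereas Gsx2, a factor of the ventral forebrain, had one in Q7SST alone. Of 3 fibroblast genes, 2 were marked in Q7SST and 3 in each mutant list. Of 3 astrocyte genes, Slc1a3 was marked in every list and Gfap in the 5 mutant lists but not in Q7SST. Of 4 liver and muscle genes, Apoa1 was marked in Q7SST alone. Of 4 neuron genes the same 2 were marked in each list, and no microglia, blood or endothelium gene was marked in any. Of 3 oligodendrocyte genes, Mbp was marked with meclizine alone. Their part in the differences below was not tested.

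The sequences below show what kind of region lay at the extremes of the change. For each chromosome they are the members with the greatest gain and the greatest loss of percentile near a protein-coding start and elsewhere. Each is a stretch of up to 300 bases at the middle of the Q111SST peak, outside annotated UTRs, read from the plus strand of GRCm38, with CpG dinucleotides in capitals. The Coch and Dazl stretches, from members that stood high in Q7SST and low in Q111SST, held 10 CpG in 141 bases and 15 in 300 bases. The other 6 held 2 to 8 CpG in 266 to 300 bases.
Hif1a, higher in Q111SST, chr12:73901499-73901775: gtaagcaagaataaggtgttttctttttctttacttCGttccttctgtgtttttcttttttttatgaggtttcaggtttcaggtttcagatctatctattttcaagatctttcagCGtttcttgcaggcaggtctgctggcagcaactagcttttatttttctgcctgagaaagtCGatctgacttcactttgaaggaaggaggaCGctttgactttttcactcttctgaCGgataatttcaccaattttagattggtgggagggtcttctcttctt
Coch, lower in Q111SST, chr12:51593624-51593764: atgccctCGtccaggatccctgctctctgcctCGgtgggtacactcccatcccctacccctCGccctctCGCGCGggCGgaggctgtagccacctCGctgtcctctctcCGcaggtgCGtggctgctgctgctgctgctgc
Akap6 intron, higher in Q111SST, chr12:52829198-52829497: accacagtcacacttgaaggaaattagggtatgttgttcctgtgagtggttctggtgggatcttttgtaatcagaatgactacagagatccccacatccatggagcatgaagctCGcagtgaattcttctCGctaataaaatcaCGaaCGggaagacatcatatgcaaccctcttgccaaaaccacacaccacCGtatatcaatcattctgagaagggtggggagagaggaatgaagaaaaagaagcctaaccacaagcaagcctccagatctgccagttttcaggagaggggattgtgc
Near Tmem30b, lower in Q111SST, chr12:73564940-73565239: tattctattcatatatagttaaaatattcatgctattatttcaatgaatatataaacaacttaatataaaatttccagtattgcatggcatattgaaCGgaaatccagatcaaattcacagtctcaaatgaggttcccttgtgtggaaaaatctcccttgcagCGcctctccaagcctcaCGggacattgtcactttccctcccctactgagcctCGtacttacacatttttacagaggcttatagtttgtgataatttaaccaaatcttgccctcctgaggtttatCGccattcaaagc
Plin4, higher in Q111SST, chr17:56109323-56109588: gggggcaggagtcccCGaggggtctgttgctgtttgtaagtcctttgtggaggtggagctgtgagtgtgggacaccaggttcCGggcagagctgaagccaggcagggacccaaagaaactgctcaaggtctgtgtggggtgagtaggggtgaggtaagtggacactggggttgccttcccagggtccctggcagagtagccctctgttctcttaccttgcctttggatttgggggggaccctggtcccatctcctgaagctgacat
Dazl, lower in Q111SST, chr17:50292452-50292751: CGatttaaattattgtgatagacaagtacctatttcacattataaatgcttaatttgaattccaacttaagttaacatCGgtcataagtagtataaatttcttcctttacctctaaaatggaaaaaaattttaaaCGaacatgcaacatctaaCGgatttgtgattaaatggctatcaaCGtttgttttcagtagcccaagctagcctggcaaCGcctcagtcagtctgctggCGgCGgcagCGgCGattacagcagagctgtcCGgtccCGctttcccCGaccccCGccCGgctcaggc
Mta3 intron, higher in Q111SST, chr17:83732179-83732478: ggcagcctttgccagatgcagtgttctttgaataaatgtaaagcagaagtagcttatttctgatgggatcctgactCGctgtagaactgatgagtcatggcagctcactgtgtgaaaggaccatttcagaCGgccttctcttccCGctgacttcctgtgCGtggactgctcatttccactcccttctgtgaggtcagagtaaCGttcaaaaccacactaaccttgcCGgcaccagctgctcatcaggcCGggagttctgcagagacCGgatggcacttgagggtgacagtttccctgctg
Near H2-Q1, lower in Q111SST, chr17:35301750-35302049: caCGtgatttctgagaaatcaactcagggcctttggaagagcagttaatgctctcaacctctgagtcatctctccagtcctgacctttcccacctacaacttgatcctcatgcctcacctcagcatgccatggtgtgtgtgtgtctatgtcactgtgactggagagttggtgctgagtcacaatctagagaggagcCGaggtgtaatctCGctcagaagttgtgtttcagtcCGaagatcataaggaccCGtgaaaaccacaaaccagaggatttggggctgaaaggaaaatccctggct

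Taken whole, chromosome 17 had the lowest median change of the 19 autosomes, and chromosome 12 the next lowest. The median change on chromosome 17 was -1.88 points (95% binomial interval of the median -2.60 to -1.01, n = 1143 regions), and on chromosome 12 it was -0.591 points (-1.72 to 0.211, n = 949). Over the other 17 autosomes it was 1.70 points (1.57 to 1.83, n = 24823), and single chromosomes among them ran from -0.427 to 3.44. Chromosome 10, at -0.427, lay within the interval of chromosome 12. Of its regions 52.4% were lower in Q111SST, beside 51.9% on chromosome 12. The intervals cover counting over regions only. Neighbouring regions are not independent, and no replicate list bears on them.

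Both chromosomes had medians below that of the pooled other autosomes near starts and away from them. Of the members, 477 on chromosome 12 and 675 on chromosome 17 lay within 1 kb of an annotated transcription start. There the median change was -1.06 (-2.38 to -0.0604) on chromosome 12 and -2.23 (-3.07 to -1.69) on chromosome 17, beside 1.25 (1.10 to 1.38) on the other autosomes. Single other autosomes ran from -0.704 to 2.98 near starts. Elsewhere the medians were 0.964 (-2.20 to 3.12) on chromosome 12 and 0.171 (-2.66 to 2.61) on chromosome 17, beside 2.98 on the other autosomes and 0.727 to 5.14 on single ones. Relative to the other autosomes the medians were -2.31 near starts and -2.02 elsewhere on chromosome 12, and -3.48 and -2.81 on chromosome 17. Over members found in all 6 lists the relative median of chromosome 12 was -1.996 near starts but -0.0263 elsewhere, whereas that of chromosome 17 was -3.78 and -4.19. Away from starts both intervals of the change itself held 0, and chromosome 12 lay within the range of single other autosomes.

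**Figure D1:**
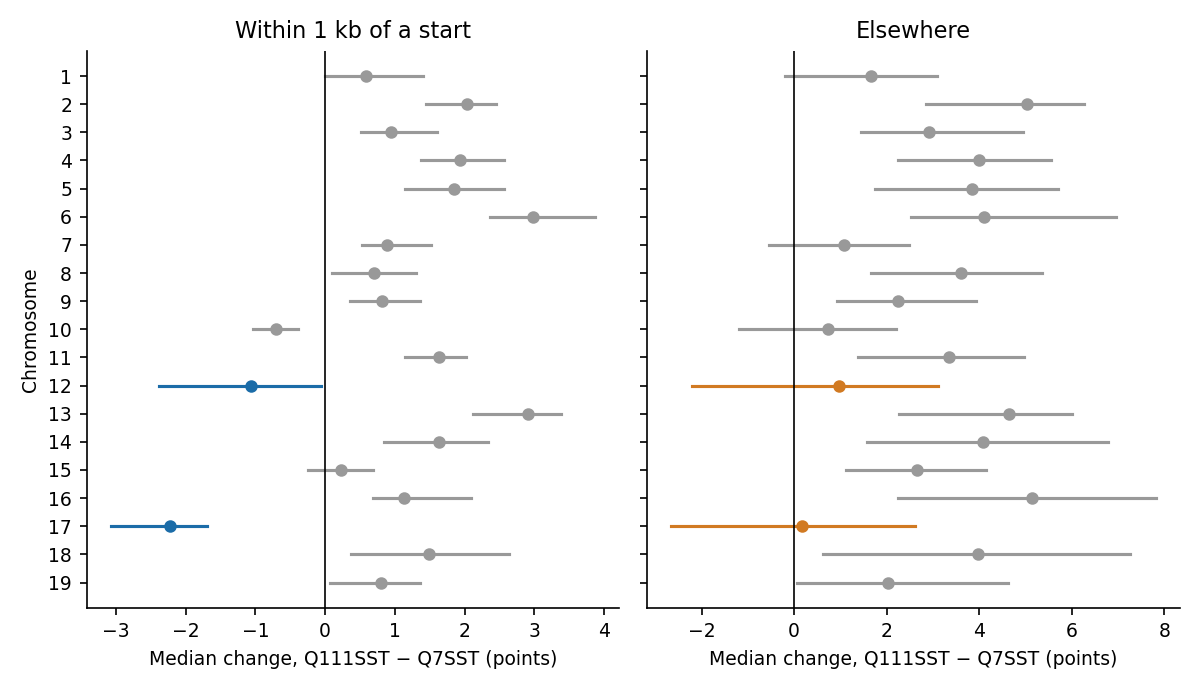
Median change of percentile from Q7SST to Q111SST on each autosome (horizontal axis, percentile points; vertical axis, chromosome) for regions within 1 kb of a start (left) and elsewhere (right), with the 95% binomial interval of the median as a line. Chromosomes 12 and 17 are in colour and sit at -1.06 and -2.23 points near starts, left of the other autosomes, of which chromosome 10 is nearest at -0.704.

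The change was not spread evenly along chromosome 12. To describe this, each chromosome was divided at the position, at least 10 Mb from either end, that left the least summed deviation of its members from the medians of both sides. On chromosome 12 that position was 69.6 Mb. The 464 members before it, on the centromere side, had a median change of 2.68 points (1.23 to 4.05), and the 485 beyond it had -3.85 (-4.97 to -2.55). The step between sides was -6.53 points. Between the flanking members the medians thus changed sign, from a value above that of the other autosomes to the lowest side found on any autosome divided in this way. The next lowest was -3.23 points, over 104 regions at the start of chromosome 3.

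The position was chosen on the same changes, so some step had to appear. The division removed 2.68% of the summed deviation on chromosome 12, rank 1 of the 19 autosomes, and 1.07% on chromosome 17, rank 2. By the size of the step alone, chromosome 12 was at rank 2 and chromosome 17 at rank 7. The greater step, -7.07 points on chromosome 9, rested on 55 regions at its start. The spread among members was wide beside these steps. Beyond the position on chromosome 12 the middle 50% of members ran from -11.3 to 4.04 points, and before it from -7.69 to 12.8.

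On chromosome 17 the position was 17.5 Mb. The 182 members before it had a median change of 1.53 points (0.295 to 3.28), and the 961 beyond it had -2.58 (-3.37 to -1.88), a step of -4.12. The H2 complex lies beyond this position. For members away from starts alone the position of chromosome 17 was 62.5 Mb, and that of chromosome 12 was 68.1 Mb.

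Promoters make up about as many of the members as regions elsewhere on chromosome 12 and more of them on chromosome 17, and they entered the choice of the position, so a step among them is partly built in. On chromosome 12, members near a start had a median change of 1.71 points (0.701 to 3.42, n = 217) before the position and -4.56 (-5.48 to -3.40, n = 260) beyond it. On chromosome 17 the values were 0.702 (-0.234 to 1.64, n = 86) and -2.79 (-3.42 to -2.05, n = 589). The share of promoter members that stood lower in Q111SST was 71.9% (95% Wilson interval 66.2% to 77.0%) beyond the position on chromosome 12 and 34.6% (28.6% to 41.1%) before it. It was 65.4% (61.4% to 69.1%) beyond the position on chromosome 17, 44.2% (34.2% to 54.7%) before it, and 41.6% (40.7% to 42.5%) on the other autosomes. Away from starts the medians beyond the positions were -2.39 (-5.56 to 0.970, n = 225) on chromosome 12 and -1.88 (-4.26 to 2.25, n = 372) on chromosome 17, with intervals that held 0. Relative to the other autosomes, where the median away from starts was 2.98, these were -5.37 and -4.86, beside -5.80 and -4.04 near starts.

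In bins of 5 Mb with at least 10 members, chromosome 12 had a median change below 0 in 8 of 9 bins beyond the position and in 1 of 12 before it. For members near a start these counts were 9 of 9 and 1 of 8, and away from starts 6 of 9 and 4 of 12. The single bin below 0 before the position, from 10 to 15 Mb, had a median of -5.03 over 22 members, lower than 6 of the 9 bins beyond the position. The bin from 105 to 110 Mb was the exception beyond it, with 2.61 points over 33 members, although its 15 promoter members had -0.906. Chromosome 17 had 13 of 14 bins below 0 beyond its position and 0 of 3 before it. Near starts the counts were 12 of 13 and 1 of 2, and elsewhere 7 of 14 and 0 of 3. The lowest bin of chromosome 17, from 65 to 70 Mb, had -5.93 points over 41 members. On chromosome 17 all 9 bins from 45 to 90 Mb were below 0. On the other autosomes 99 of 428 bins were below 0 (23.1%), and 105 of 376 near starts. Single ones among them ran from 0 of 29 on chromosome 6 to 16 of 26 on chromosome 10. Taken whole, chromosome 12 had 9 of 22 below 0, a lower share than chromosome 10, and chromosome 17 had 13 of 18. In bins of 2 Mb the shares below 0 were 60.5% on chromosome 12, 67.6% on chromosome 17 and 24.9% on the other autosomes. In the same order they were 40.9%, 72.2% and 23.1% in bins of 5 Mb, and 41.7%, 77.8% and 17.7% in bins of 10 Mb.

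The position on chromosome 12 fell between the promoter of Vcpkmt, which methylates the VCP chaperone, and that of Sos2, an exchange factor for Ras. Vcpkmt stood at percentile 90.0 in Q7SST and 94.2 in Q111SST. Klhdc2, a substrate receptor of a ubiquitin ligase, stood at 90.2 and 94.6 before the position, whereas Nemf, a ribosome quality control factor, went the other way with 96.5 and 93.3. Beyond the position, the members at Sos2 stood at 83.8 and 89.8 in Q7SST and at 79.4 and 85.4 in Q111SST. The region shared by Atl1 and Map4k5 stood at 84.7 and 75.5. Sav1, a Hippo pathway scaffold, stood slightly higher in Q111SST, at 91.1 against 89.1. Of the 6 promoter members nearest to the position on each side, 4 before it were higher in Q111SST and 5 beyond it were lower, by the values that chose the position. On chromosome 17 the corresponding counts were 3 and 5.

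Members were also counted as called when they differed by at least 10 percentile points. Over all shared autosomal regions 19.2% were lower and 26.8% were higher by this rule, and the rule that gave the members used the same contrast, so nothing is read from the counts. On chromosome 12, 235 of 949 members were lower and 227 higher, and on chromosome 17, 253 of 1143 were lower and 206 higher. Near a start the shares over all autosomes were 12.1% lower and 16.2% higher. Beyond the position on chromosome 12, 61 of 260 promoter members were lower (23.5%) and 15 higher (5.77%). Beyond that on chromosome 17, 94 of 589 were lower (16.0%) and 44 higher (7.47%). Elsewhere, where 26.4% of all regions were lower and 37.4% higher, 80 of 225 members beyond the position on chromosome 12 were lower and 74 higher.

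The percentile is the rank of the score, so the score gives the same observation on another scale. The median log2 ratio of the scores, Q111SST over Q7SST, was -0.33 beyond the position on chromosome 12 and -0.03 before it. It was -0.26 beyond the position on chromosome 17, -0.07 before it, and -0.06 on the other autosomes. The scores of separate lists may not share a scale, so these ratios are meaningful only beside each other. The width covered by peaks differed little, with median log2 ratios of -0.02 and 0.04 on chromosome 12, beyond and before the position, -0.03 and 0.01 on chromosome 17, and 0.06 on the other autosomes.

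The far side of chromosome 12 had a median below 0 at every strength. The position was chosen on these same changes, so this is partly built in. Shared autosomal regions were split by their mean percentile in the vehicle lists into equal groups at 45.4 and 74.9. Beyond the position on chromosome 12 the medians were -4.80 among weak members, -2.38 among middle members and -4.54 among strong members, beside 4.11, 2.92 and 0.779 on the other autosomes. Before the position they were 4.05, 4.83 and 1.24. Beyond the position on chromosome 17 they were 1.57, -2.49 and -3.29, so that the weak members there had a median above 0, with an interval from -1.43 to 5.67.

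The median GC content of members was 49.0% beyond the position on chromosome 12 and 46.4% before it, 50.4% and 47.3% on chromosome 17, and 47.9% on the other autosomes. Away from starts on chromosome 17 the order was the other way, with 45.1% beyond the position and 46.1% before it. Near starts the values on chromosome 12 were 52.0% and 51.7%, with 42.5 and 42.8 CpG per kb, and on chromosome 17 they were 53.2% and 49.8%, with 40.4 and 34.5 CpG per kb. The share of bases marked as repeats in the reference was 11.7% beyond the position and 12.3% before it on chromosome 12.

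Regions held by a single vehicle list are not members. Beyond the position on chromosome 12, 265 regions were in Q7SST alone and 137 in Q111SST alone, so that Q111SST held 34.1% of them (Wilson interval 29.6% to 38.8%). Before it Q111SST held 53.6% (49.0% to 58.2%), beside 55.1% (54.4% to 55.8%) on the other autosomes and 48.9% to 63.2% on single ones. On chromosome 17 it held 44.5% (40.7% to 48.4%) beyond the position and 56.9% (48.8% to 64.7%) before it. Near starts on the far side of chromosome 12, 49 regions were in Q7SST alone and 17 in Q111SST alone, so that Q111SST held 25.8% (16.7% to 37.4%), beside 57.4% (44.2% to 69.7%) before the position and 47.6% (45.8% to 49.5%) on the other autosomes. Near starts on chromosome 17 the intervals of both sides overlapped, with 42.2% (33.6% to 51.3%) beyond the position and 44.4% (24.6% to 66.3%) before it. These counts come from the contrast used by the rule and are given as a description.

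Among promoter members of chromosome 12, the greatest loss of percentile was at Coch (chr12:51592858-51594513), which encodes cochlin, a matrix protein of the inner ear. The region spans the start, exon, UTR and intron, and stood at 83.8 in Q7SST and 12.9 in Q111SST, at 40.6 with loxapine, 5.9 with meclizine and 1.4 with cyproheptadine, and had no peak with DKI. Slc25a21, a mitochondrial carrier, stood at 66.4 in Q7SST and 1.3 in Q111SST. Acot1, an acyl-CoA thioesterase, stood at 65.9 and 6.8 and had no peak with cyproheptadine, loxapine or DKI. Eml5, a microtubule-associated protein, stood at 95.5 in Q7SST, 41.9 in Q111SST and 14.9 to 48.6 with the compounds. Ccdc177 stood at 83.2 and 30.9. Of these 5, Coch and Slc25a21 lay before the dividing position, so losses of this size occurred on both sides.

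The greatest gain on chromosome 12 was at the upstream start of Hif1a, the oxygen-sensitive subunit of hypoxia-inducible factor (chr12:73901216-73902199, start, exon, UTR and intron). It stood at 0.9 in Q7SST, 81.0 in Q111SST and 62.0 to 86.2 with the compounds, so that Q7SST alone was low. A separate member at a start further into Hif1a (chr12:73908738-73911117) was the stronger of these members in Q7SST and went the other way, with 98.5 in Q7SST, 78.3 in Q111SST, and 60.6 to 81.1 with the compounds. Exoc3l4 stood at 2.8 in Q7SST and 59.6 in Q111SST, and Rin3, an exchange factor for Rab5, at 13.2 and 64.7. The region of D630036H23Rik and Ispd, an enzyme of dystroglycan glycosylation, stood at 26.8 and 76.9, and Heatr5a at 16.9 and 59.6. Of these gains, those at Hif1a, Exoc3l4 and Rin3 lay beyond the dividing position.

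Away from starts on chromosome 12, an intron of Akap6, an anchor of protein kinase A, held a member (chr12:52828695-52829997) at 6.1 in Q7SST, 71.5 in Q111SST and 73.8 to 88.2 with the compounds. Members in introns of Stxbp6, a regulator of SNARE assembly, and of Slc25a21 stood at 7.8 and 13.2 in Q7SST and at 71.1 and 75.5 in Q111SST. The member nearest to Tmem30b, a flippase subunit, lay outside genes, 18220 bp from its start (chr12:73564612-73565465), and stood at 78.3 in Q7SST, 6.8 in Q111SST and 14.0 to 53.6 with the compounds. The member near Pygl, the liver glycogen phosphorylase, stood at 98.9 and 32.4, and that nearest to Ppm1a, a protein phosphatase, at 74.5 and 8.8. The gains here lay before the dividing position, and the losses beyond it.

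On chromosome 17 the greatest promoter loss was at Dazl, an RNA-binding protein of germ cells (chr17:50292255-50292826, exon, UTR and intron, 66 bp from a start). It stood at 91.1 in Q7SST, 4.9 in Q111SST and 10.8 with meclizine, and had no peak with cyproheptadine, loxapine or DKI. Plcl2, a phospholipase C-like protein, stood at 72.7 and 6.8, and Slc37a1, a sugar-phosphate exchanger, at 58.5 and 4.9. Mmp25, a membrane-type metalloproteinase, stood at 57.9 and 10.8, and Qpct, glutaminyl cyclase, at 73.8 and 30.9. All 5 lay beyond the dividing position, as did 589 of the 675 promoter members of the chromosome.

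The greatest promoter gain on chromosome 17 was at Plin4, a coat protein of lipid droplets (chr17:56108663-56110370, start, exon, UTR and intron), at 23.7 in Q7SST, 80.7 in Q111SST and 61.3 to 78.3 with the compounds. Epcam, an epithelial adhesion molecule, stood at 28.3 and 71.5, but at 10.1 with cyproheptadine. Efna5, a ligand of Eph receptors, stood at 9.6 and 49.9, Mtcl1, a microtubule crosslinker, at 15.1 and 53.9, and Ddr1, a collagen receptor, at 26.8 and 63.1. These gains also all lay beyond the dividing position. Away from starts, an intron of Mta3, a subunit of the NuRD complex, held a member (chr17:83731826-83732808) at 7.8 in Q7SST, 81.0 in Q111SST and 67.4 to 88.3 with the compounds. A member in an intron of Qk, an RNA-binding protein, stood at 2.8 and 75.8, and an intergenic member nearest to Qk at 90.4 and 24.2, so that this locus held an extreme of each direction. An intron of Fbxo11, a ubiquitin ligase subunit, stood at 4.6 and 65.6. The member nearest to H2-Q1, a class I gene, lay outside genes (chr17:35301496-35302424) and stood at 85.9 in Q7SST, 14.9 in Q111SST and 50.6 to 68.5 with 3 compounds, with no peak with DKI. The member nearest to Snx9, a sorting nexin, lay in exon and UTR of Zdhhc14 and stood at 78.3 and 10.8. Both Qk members and that nearest to Snx9 lay before the dividing position, and those at Mta3, Fbxo11 and H2-Q1 beyond it.

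At the edge of the 1 kb window, members just inside it, at Qk and Slc29a1, both 995 bp from a start, differed by 25.2 and 12.8 points. Those just outside it, at Pole2 and Yy1, 1015 and 1075 bp from a start, differed by -0.445 and -11.3.

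Genes of known roles were then followed through 12 lists of 133 genes, of which 130 were annotated on their chromosome and 99 had a member within 1 kb of a start. The 99 genes shared 95 regions, since Tap1 and Psmb9, C2 and Ehmt2, Hspa1a and Hspa1l, and Tbp and Psmb1 each share a region. Beyond the dividing positions, 14 of 21 listed genes on chromosome 12 and 38 of 54 on chromosome 17 were lower in Q111SST, with median changes of -4.82 and -3.76 points. Of all promoter members there, 71.9% and 65.4% were lower, with medians of -4.56 and -2.79, so these counts lie near those of their sides and are no result about the lists. Before the positions, 8 of 15 and 2 of 9 were lower, with medians of -2.23 and 3.26. The listed genes before the position on chromosome 12 thus had a median below 0, unlike the members there as a whole.

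Genes of hypoxia and growth factor signalling on chromosome 12 were lower in Q111SST at 9 of 12 members, with a median of -4.12 points. By at least 10 points 4 were lower, beside 12.1% of promoter regions on all autosomes and 23.5% of those beyond the position. Ahr, Rhob and Nampt lay before the position, so the last share covers only part of the list. Hif1a is counted here by its inner start alone, and not by the upstream start, which was higher in Q111SST by 80.1 points. Besides the inner Hif1a start, Prkch, a protein kinase C, stood at 31.3 in Q7SST and 10.8 in Q111SST, Itpk1, an inositol phosphate kinase, at 62.5 and 47.2, and Max, the partner of Myc, at 75.6 and 62.5. Numb, an inhibitor of Notch signalling, stood at 95.5 and 95.6.

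Of the immediate early and AP-1 genes of chromosome 12, 3 of 4 were lower, beside 54.9% of all promoter members of the chromosome. Fos stood at 73.8 in Q7SST and 64.7 in Q111SST, Jdp2 at 71.1 and 63.1, and Zfp36l1, which destabilises AU-rich transcripts, at 42.4 and 35.4. Nfkbia, the inhibitor of NF-kappaB, stood at 64.0 and 77.3 and was the single gene of the list before the dividing position. Batf had no peak in any list.

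Of chromatin, RNA and proteostasis genes on chromosome 12, 7 of 11 were lower, with a median of -4.82. Among all promoter members of the chromosome 54.9% were lower, with a median of -1.06. Dnmt3a, a de novo DNA methyltransferase, stood at 32.6 in Q7SST and 3.2 in Q111SST, and had no peak at that region with cyproheptadine or DKI. Atxn3, a deubiquitinase with its own glutamine repeat, stood at 98.0 in Q7SST, 88.1 in Q111SST and 75.4 to 92.8 with the compounds. Hdac9, a class IIa deacetylase, stood at 67.2 and 54.7. The member at the start of Yy1, a zinc finger factor of promoters and enhancers, stood at 72.3 in Q7SST and 93.2 in Q111SST, whereas the member 1075 bp from that start stood at 87.8 and 76.6.

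Forebrain and lineage transcription factors of chromosome 12 were lower at 3 of 9 members, with a median of 0.269 points. Twist1, a mesenchymal factor, stood at 68.6 in Q7SST and 79.4 in Q111SST, whereas Pax9 stood at 71.5 and 62.5. Bcl11b, a factor of striatal neurons, and Sox11 and Meox2 had a peak at a start in Q7SST alone of the 6 lists, whereas Nkx2-9 had one in Q111SST and meclizine alone. Nkx2-1 had none in any list. The 6 listed genes of the Dlk1-Dio3 domain and the 8 of the serine protease inhibitor and immunoglobulin loci had no peak in any list.

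On chromosome 17, histocompatibility and antigen processing genes were lower in Q111SST at 8 of 11 members, with a median of -6.51 points, 3 of them by at least 10 points. All 11 lay beyond the position, where 65.4% of promoter members were lower and 16.0% were lower by at least 10 points. H2-Ab1, a class II chain, stood at 94.5 in Q7SST, 70.7 in Q111SST and 48.6 to 70.9 with the compounds. H2-K1, a class I chain, stood at 75.3 and 63.7, and H2-DMa, which loads peptide onto class II, at 92.3 and 81.0. The region shared by Tap1, a peptide transporter, and Psmb9, an immunoproteasome subunit, stood at 87.6 and 83.7. H2-Aa and H2-Eb1 had no peak in any list.

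Complement, cytokine and heat shock genes of the H2 region were lower at 7 of 9 members, none by 10 points, with a median of -3.76. These too lay beyond the position, where 65.4% of all promoter members were lower, with a median of -2.79. Hspa1b, an inducible HSP70, stood at 99.4 in Q7SST and 95.6 in Q111SST, and Bag6, its cochaperone, at 78.3 and 72.4. Neu1, a lysosomal sialidase, stood at 66.8 and 72.4. Tnf, Lta, Cfb and C4b had no peak in any list.

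Signalling and growth genes of chromosome 17 were lower at 11 of 15 members, with a median of -2.53. Of all promoter members of the chromosome 62.7% were lower, with a median of -2.23. Vegfa, the endothelial growth factor and a target of hypoxia-inducible factor, stood at 75.3 in Q7SST, 49.9 in Q111SST and 60.5 to 74.3 with the compounds, so that Q111SST was the lowest of the 6 lists. Cdkn1a, the cell cycle inhibitor p21, stood at 47.4 and 65.2, and Dll1, a Notch ligand before the dividing position, at 60.2 and 76.9. Notch3 stood at 74.1 and 70.2, but at 23.9 with cyproheptadine and 22.7 with loxapine, and had no peak with DKI.

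Chromatin and transcription genes of chromosome 17 were lower at 8 of 14 members, with a median of -3.25, beside 62.7% and -2.23 for all promoter members of the chromosome. Ring1, a subunit of Polycomb complex PRC1, stood at 50.0 in Q7SST, 30.9 in Q111SST and 23.3 to 33.5 with the compounds. Tbp, the TATA-binding protein, which shares its region with the proteasome gene Psmb1, stood at 65.5 and 82.3, and Pbx2 at 59.6 and 75.8. Satb1 had a peak at a start in Q7SST alone. Proteostasis, repair and mitochondrial genes were lower at 6 of 12 members, with a median of -0.843. Among them Msh6, a mismatch repair gene, stood at 88.6 in Q7SST and 81.6 in Q111SST. In the imprinted Igf2r domain, before the dividing position, Igf2r stood at 77.2 in Q7SST and 95.9 in Q111SST, and Airn, its antisense transcript, at 50.0 and 50.7.

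**Figure D2:**
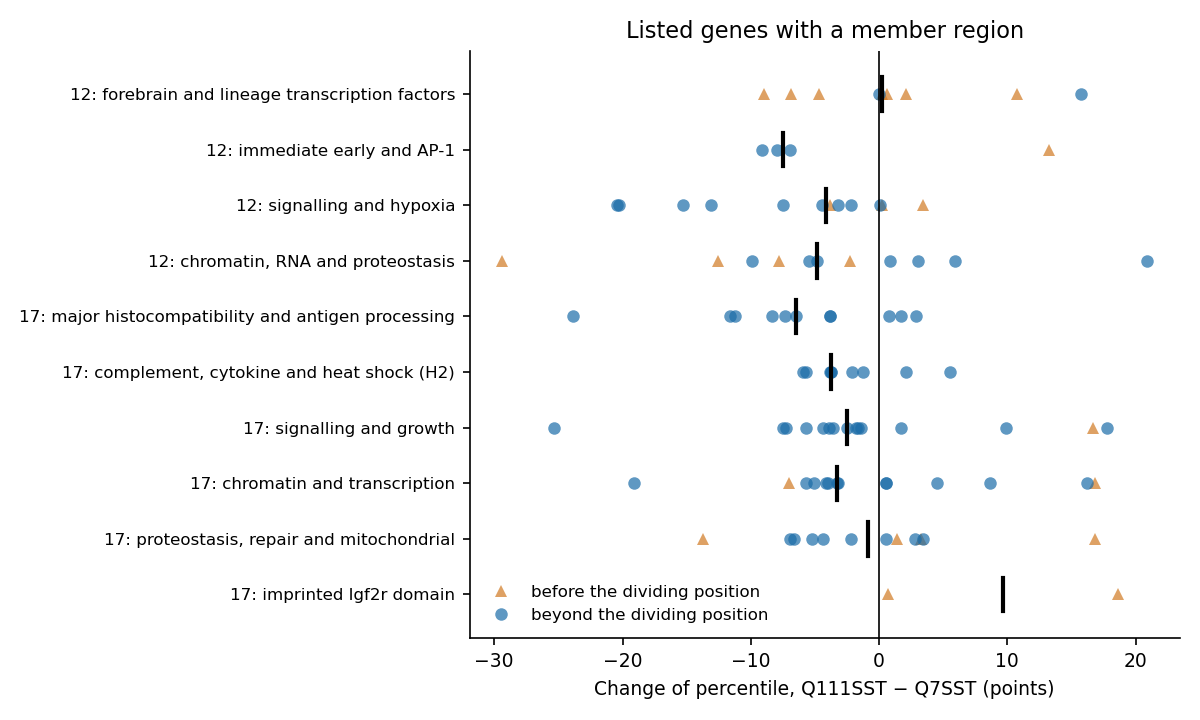
Change of percentile from Q7SST to Q111SST (horizontal axis, percentile points) of the 99 listed genes with a member region, by list (vertical axis; the number before each name is the chromosome). Triangles lie before the dividing position, circles beyond it, and the black bar is the median of the list. The signalling and histocompatibility lists have medians of -4.12 and -6.51, while the forebrain list, mostly before the position, has 0.269.

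The compound lists were set beside Q7SST in the same way. All 5 mutant lists share Q7SST as their reference, so a feature of Q7SST alone would appear in each, and likeness among these comparisons was not tested. Relative to the other autosomes, the median change beyond 69.6 Mb on chromosome 12 was -5.55 points for Q111SST, and for the compound lists -5.41 (loxapine), -6.64 (meclizine), -7.35 (cyproheptadine) and -7.84 (DKI). Before it the values were, in the same order, 0.982, 1.40, 1.33, 0.685 and 0.711. Beyond 17.5 Mb on chromosome 17 they were -4.29, -5.36, -4.41, -4.32 and -4.74. The position that best divided chromosome 12 was found anew for each compound list, at 69.4 Mb for loxapine, 69.6 for meclizine, 69.7 for DKI and 70.8 for cyproheptadine, and in each it removed the greatest share of deviation of the 19 autosomes. On chromosome 17 the positions scattered, at 16.8, 23.6, 23.7 and 73.1 Mb in the same order.

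With Q111SST as the reference, so that both lists came from the mutant line, the sides differed less. Beyond 69.6 Mb on chromosome 12 the medians relative to the other autosomes were -0.998 for meclizine, -1.32 for cyproheptadine, -1.61 for loxapine and -2.13 for DKI. Before it they were, in the same order, -0.421, -0.816, 0.770 and -1.01. Beyond 17.5 Mb on chromosome 17 they were -0.467, -0.182, -1.41 and -0.267, and before it 0.594, 1.66, -1.30 and 1.57. The positions that best divided chromosome 12 lay at 80.6, 31.3, 58.5 and 98.4 Mb. The last of these, for DKI, removed the greatest share of deviation of the 19 autosomes, 0.783%. DKI is the smallest list, and with lists of equal size its median over the whole of chromosome 12, relative to the other autosomes, was -0.0748 in place of -1.58. Split by place, DKI on chromosome 12 had -3.86 beyond the position and -0.780 before it at promoters, but 0.337 and -0.796 away from starts. Loxapine had -0.582 and 0.350 at promoters, and -2.44 and 1.24 away from starts. The compound lists thus also differed from Q111SST by side, by less over all places than they did from Q7SST, the only list of the wild-type line. The chromosomes and positions were chosen on Q111SST minus Q7SST, so the greater differences from Q7SST are partly built in. Each comparison of a compound list used the regions found in both of its lists, and not the members alone.

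**Figure D3:**
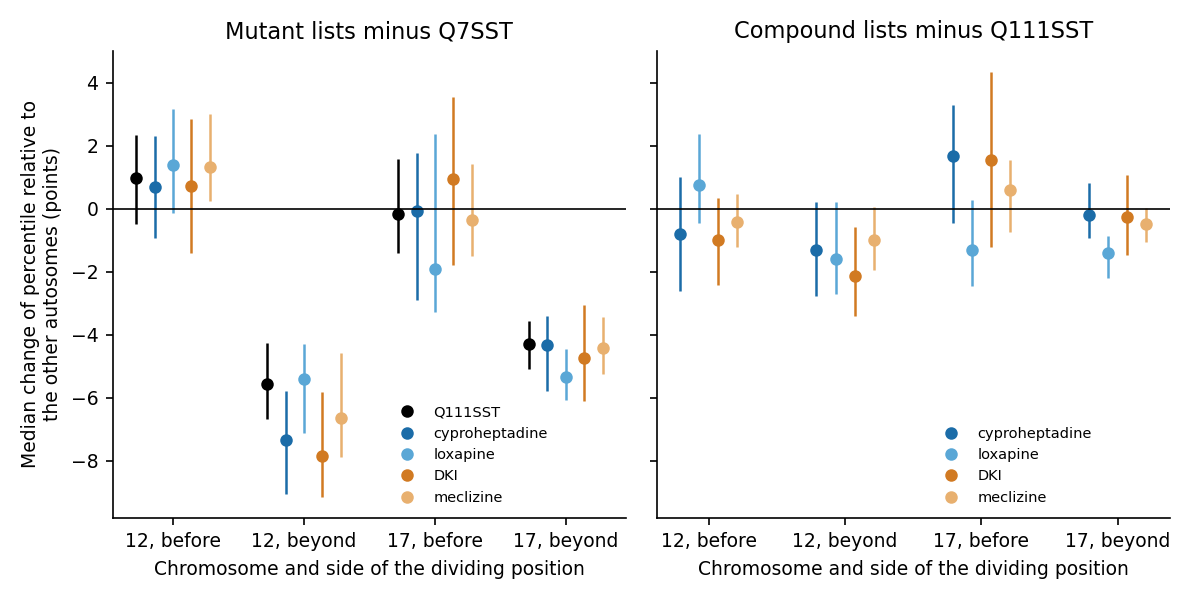
Median change of percentile relative to the other autosomes (vertical axis, percentile points) on each side of the dividing positions of chromosomes 12 and 17 (horizontal axis), for the 5 mutant lists minus Q7SST (left) and the 4 compound lists minus Q111SST (right). Lines are 95% binomial intervals of the median. Beyond the position on chromosome 12 the mutant lists sit between -7.84 and -5.41 on the left, and the compound lists between -2.13 and -0.998 on the right.

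Members found in all 6 lists, 694 on chromosome 12 and 884 on chromosome 17, allow levels to be compared over the same regions. At promoters beyond the position on chromosome 12 (233 members) the median percentile was 78.7 in Q7SST and 75.5 in Q111SST, and among the compound lists it was 73.6 (loxapine), 72.6 (meclizine), 67.1 (cyproheptadine) and 62.7 (DKI). At the 184 promoters before it, the values were, in the same order, 76.8, 80.3, 79.9, 78.7, 76.5 and 72.6. At these promoters Q7SST was the highest of the 6 lists on the far side and not on the near side. Its order against Q111SST is partly built in, since the chromosomes and the position were chosen on that contrast. At promoters beyond the position on chromosome 17 (529 members) Q7SST was also the highest, at 82.9, beside 80.1 in Q111SST and 70.4 to 79.7 with the compounds. Over the other autosomes (11168 promoters) Q7SST stood at 80.4, below Q111SST at 82.2 and loxapine at 82.7. Meclizine stood there at 80.1, cyproheptadine at 77.6 and DKI at 74.3, so cyproheptadine and DKI were the lowest lists there too. The lists differ in size, and a percentile is a rank within its list, so levels of different lists do not share a scale. Away from starts Q7SST was not the highest on either far side. On the far side of chromosome 12 (126 members) it stood at 47.4, below loxapine at 58.8, Q111SST at 53.9 and meclizine at 48.6, and above cyproheptadine at 46.5 and DKI at 40.8. Beyond that on chromosome 17 (214 members) it stood at 53.9, below loxapine at 60.8 and Q111SST at 58.6. On the other autosomes Q7SST stood at 50.0 and Q111SST at 58.3 away from starts.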

How the data were processed

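H3K4me3 ChIP-Seq libraries (micrococcal nuclease-digested, single-end) gave 1 deposited peak list per condition. The submitters' processing notes name Trimmomatic 0.36, Bowtie2, SAMtools 1.3, MACS2 and the build mm10, without roles, thresholds or an input control. The values used are the authors' deposited score, a whole number of at least 10 in every list. Whether replicates were pooled is not stated, and read totals were not used here. No peak lay beyond the end of its chromosome in GRCm38 (0 of 21 chromosomes).

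Peaks sharing at least 1 bp were merged. A region's percentile is that of its strongest peak's score within its list, with ties at their mean rank. Starts were those of all GENCODE M21 transcripts, with a window of 1 kb. Medians have 95% binomial order-statistic intervals, and shares have 95% Wilson intervals, which cover counting error only. With 1 list per condition no test between conditions was made. The search for dividing positions was tested on simulated steps, which bears on the method and not on the positions found here. Named genes are the listed genes with a member, the 5 greatest gains and losses per chromosome near a protein-coding start, the 3 greatest elsewhere, and members at the edge of the window. Promoters flanking the dividing position were chosen after their values were seen. Some genes that these rules name are not reported here. The members, gene lists and rules were chosen with earlier results of these data known. Statsmodels 0.14.6, scipy 1.17.1, pandas 2.3.3 and numpy 2.4.6 were run under Python 3.11.15, and matplotlib 3.10.9 drew the figures. Sequences were read from the RefSeq copy of GRCm38.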

Additional observations from a re-analysis of the deposited data

How the results depend on the processing

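The position that divided chromosome 12 was 69.6 Mb in each of 8 alternatives for the merging, ranking and choice of regions, and 68.1 Mb when members away from starts were used alone, which was chosen after seeing the data. On chromosome 17 it ran from 17.5 to 21.9 Mb, except for 62.5 Mb, with a step of -8.13 points, in members away from starts alone. Keeping peaks that scored 47, the pooled median, or more left 481 members on chromosome 12 and 679 on chromosome 17, steps of -12.4 and -9.77 points, and medians relative to the other autosomes of -6.23 near starts on chromosome 12, -7.77 near starts on chromosome 17 and -6.84 elsewhere on chromosome 17. The share of single-list regions held by Q111SST was then 38.4% on chromosome 12 and 31.8% on chromosome 17. This threshold applies 1 score to lists whose scales may differ. With lists of equal size, the 30758 strongest peaks of each, the median near starts on chromosome 17 was -4.77, loxapine minus Q7SST on chromosome 17 was -6.25, DKI minus Q111SST on chromosome 12 was -0.0748, and Q111SST held 40.9% of single-list regions on chromosome 12. The members higher by 10 points were then 150 on chromosome 12 and 126 on chromosome 17, against 227 and 206. At 5 points 353 and 417 members were lower and 314 higher on chromosome 17, and at 20 points 117 and 130 were lower and 119 and 113 higher on chromosomes 12 and 17. Every median relative to the other autosomes kept its sign between the vehicle lists, although that of chromosome 12 away from starts ran from -3.50 with starts within 5 kb to -0.0263 over regions in all 6 lists. The median change itself away from starts took either sign, from -3.64 to 6.73 on chromosome 12 and from -8.26 to 2.56 on chromosome 17, with -3.06 there for lists of equal size. The causes were not tested. No paired analysis was possible because the series has 1 list for every condition. Replicates, depth and the score's scale are not known here, so a difference between cell lines, libraries or passages cannot be told apart from one of genotype.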
